A study of Homo sapiens with 22 samples.

Results

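The potassium channel gene loci were taken as every protein-coding gene on chromosomes 1 to 22 whose GENCODE symbol starts with KCN, each with its gene body and 50 kb on either side. The rule found 93 genes among 19222 protein-coding genes. Neighbouring members overlap, so the 93 genes form 82 separate loci that cover 21.8 Mb. Of the 93 genes, 39 encode voltage-gated pore subunits, 15 inward rectifiers, 15 2-pore channels and 8 channels of the calcium- or sodium-activated family, while 15 encode auxiliary subunits. The remaining symbol, KCNRG, belongs to a regulator that is not itself a channel.

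Regions were read from 22 lists of enriched intervals on the hg19 build, made by ChIP-seq (sequencing of DNA recovered with an antibody to a bound protein) or ATAC-seq (sequencing of DNA that a transposase can reach). PC3, a prostate cancer line from a bone metastasis that lacks the androgen receptor, gave FOXA2 lists after vehicle, 10 µM ORY-1001 for 4 h or 0.5 µM C12 for 4 h (both inhibitors of the histone demethylase LSD1), a further pair of vehicle FOXA2 lists whose antibody the labels do not name, JUN and FOSL1 lists after control siRNA (siNC) or FOXA2 siRNA (siFOXA2), and lists of the active histone mark H3K27ac and of ATAC-seq. NCI-H660, a neuroendocrine prostate cancer line, gave FOXA2 lists after vehicle or 10 µM ORY-1001 for 4 h, JUN lists after siNC or siFOXA2, and lists of the promoter and enhancer mark H3K4me2 and of ATAC-seq. LNCaP, a luminal line with an active androgen receptor, gave JUN lists after siNC or FOXA1 siRNA, and engineered LNCaP lines that express FOXA2 (FOXA2OE) or its mutant (FOXA2K265R) gave JUN lists and, for FOXA2OE, a FOXA2 list. Each group held 1 list except the further FOXA2 pair, so no difference below has a replicate check and no p-value was computed. The intervals in brackets are 95% intervals of counting error only, and regions of the same locus are not independent of each other.

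Potassium channels let potassium ions leave or enter the cell along their gradient and so set the resting potential and end action potentials. In neurons and neuroendocrine cells they shape firing and hormone release, and in epithelial and cancer cells they also take part in volume control, proliferation and migration. FOXA2 is a pioneer factor that can bind compacted chromatin, and JUN and FOSL1 are subunits of AP-1, a dimeric factor that binds enhancers. Region lists hold no RNA, so neither channel expression nor the identity of the lines could be read from them.

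The sequences under the highest-scoring FOXA2 region of each of 4 classes (1 line, the other line, both lines, lost under both inhibitors) are given first, since later results return to them. They are single places, and 3 of the 4 lack the forkhead match that most FOXA2 regions at these loci held. The score is a whole number written by the peak caller, taken to be the −log10 q-value multiplied by 10. In each line below, 201 bases around the region's centre are given from the plus strand of the reference genome, and capitals mark matches on either strand to a forkhead or an AP-1 motif. The forkhead letters searched were TATTTAC and then TATTTAT and then TATTTGC and then TATTTGT and, with G as the next letter, TGTTTAC and then TGTTTAT and then TGTTTGC and then TGTTTGT. The AP-1 letters were TGACTCA and also TGAGTCA, and neither motif's letters contain the other's.
KCNMA1 intron, chr10:78923784-78923984, in PC3 and not in NCI-H660, kept under both inhibitors: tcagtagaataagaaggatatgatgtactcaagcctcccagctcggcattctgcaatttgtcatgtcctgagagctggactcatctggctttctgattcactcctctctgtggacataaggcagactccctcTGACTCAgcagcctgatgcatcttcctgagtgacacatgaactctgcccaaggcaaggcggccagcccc
KCNMA1 intron, chr10:78920473-78920673, in both lines: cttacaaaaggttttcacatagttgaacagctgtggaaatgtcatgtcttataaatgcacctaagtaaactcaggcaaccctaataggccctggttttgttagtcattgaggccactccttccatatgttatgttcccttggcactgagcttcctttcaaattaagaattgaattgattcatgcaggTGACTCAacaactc
KCNH5 intron, chr14:63267371-63267571, in PC3, lost under both inhibitors: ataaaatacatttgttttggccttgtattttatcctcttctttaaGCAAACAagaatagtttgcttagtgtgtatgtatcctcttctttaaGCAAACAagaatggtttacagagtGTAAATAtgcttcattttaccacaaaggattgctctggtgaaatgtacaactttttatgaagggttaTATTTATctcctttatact
KCND3, chr1:112519553-112519753, in NCI-H660 and not in PC3: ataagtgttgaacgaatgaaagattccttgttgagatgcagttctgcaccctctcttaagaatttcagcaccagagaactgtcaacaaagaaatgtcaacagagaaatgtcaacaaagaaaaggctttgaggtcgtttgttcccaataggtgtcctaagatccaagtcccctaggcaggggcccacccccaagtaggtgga

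The first KCNMA1 region scored 3302 in the PC3 vehicle list, the most of any FOXA2 region at a KCN locus outside places shared by most lists, and it held 1 AP-1 match and 0 forkhead matches. The same place scored 6009 in the PC3 JUN list and 13396 in the PC3 ATAC list and was not listed for any NCI-H660 assay. The second KCNMA1 region scored 2099 in PC3 and 52 in NCI-H660 for FOXA2, and it also held 1 AP-1 match and no forkhead match. In contrast, the KCNH5 region held 4 forkhead matches, 2 of them GCAAACA, and scored 1868 before inhibitor. It was listed for neither JUN nor FOSL1. The KCND3 region scored 1694 in NCI-H660 and 1446 after ORY-1001, held no match to these letters, scored 27 in 1 of the further PC3 FOXA2 lists, and lies in an intron of the coding transcripts that overlaps an exon of a transcript with no annotated coding sequence.

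Over all members, a forkhead match stood within 100 bp of the centre in 79.0% (72.0 to 84.6) of the 157 PC3 FOXA2 regions and in 81.6% (72.2 to 88.4) of the 87 NCI-H660 FOXA2 regions. In the whole lists the shares were 77.4% and 76.1%. An AP-1 match stood in 36.3% (29.2 to 44.1) of the PC3 FOXA2 regions at KCN loci, against 26.4% in the whole list, and in 10.3% (5.54 to 18.5) of the NCI-H660 ones, against 6.39%. In PC3, the AP-1 share was 47.6% (37.1 to 58.2) for the 82 FOXA2 regions that a JUN region overlapped and 24% (15.8 to 34.8) for the 75 that none overlapped. The whole list had a similar split, 36.7% and 18.2%. These matches describe letters in a window and do not show which factor held the site.

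KCN genes are long, with a median body of 48.8 kb against 27.6 kb for all protein-coding genes, and 19.4% of them exceed 300 kb against 4.11%. Counts were therefore set against the number expected from the density of all other protein-coding genes of the same length class. The PC3 FOXA2 vehicle list held 158 regions summed over genes where 193 were expected, a ratio of 0.819 (0.701 to 0.958), and the NCI-H660 list held 89 against 98.4, a ratio of 0.905 (0.735 to 1.11). Both further PC3 FOXA2 lists gave a similar ratio, 0.788 (0.722 to 0.859) and 0.787 (0.714 to 0.867). PC3 H3K27ac stood at 0.773 (0.716 to 0.834). JUN stood at 0.918 (0.796 to 1.06) in PC3 and 0.956 (0.822 to 1.11) in NCI-H660, and ATAC slightly above expectation at 1.10 (1.05 to 1.15) and 1.08 (1.01 to 1.15). Without KCNMA1, the largest contributor, the PC3 ratio was 0.669 for FOXA2 and 0.773 for JUN. For ATAC, summed counts were 2113 against 1922 expected in PC3 and 1025 against 950 in NCI-H660. KCNMA1 alone gave 197 ATAC regions against 57.5 expected in PC3 and 57 against 29.6 in NCI-H660. The ATAC ratio without KCNMA1 was not computed, so the slight excess is not read as a trait of KCN loci in general.

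FOXA2 regions at KCN loci lay mostly inside the genes. Introns of KCN genes held 65.6% of FOXA2 regions in PC3 and 65.5% in NCI-H660, while KCN promoters (1 kb on either side of the start of a coding transcript) held 1.27% and 3.45%. For ATAC regions at the same loci, the share in introns was 48.6% in PC3 and 47.0% in NCI-H660. Gene bodies make up part of every locus by definition, and the share expected in introns was not computed. Of the 93 genes, 45 (48.4%, against 54.9% of all genes) had a FOXA2 region in PC3 and 34 (36.6%, against 38.4%) in NCI-H660. Of these, 20 had one in both lines, 25 in PC3 alone and 14 in NCI-H660 alone. This split was not computed over all genes, and the PC3 list is longer (23222 regions against 11518), so nothing particular to KCN genes is read from it. Individual sites were rarely shared: 16 of the 157 PC3 regions (10.2%, 6.37 to 15.9) overlapped an NCI-H660 region, against 10.6% over all protein-coding loci.

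KCN promoters were more often accessible in NCI-H660 than in PC3. In NCI-H660, 69 of the 93 KCN genes (74.2%) had an accessible promoter, close to the 75.3% of all protein-coding genes. In PC3 the number was 58 (62.4%), against 78.2% of all genes. Promoters of 52 KCN genes (55.9%, against 70.3% of all genes) were accessible in both lines and 18 (19.4%, against 16.9%) in neither. A further 17 KCN promoters (18.3%, 11.7 to 27.3) were accessible in NCI-H660 only, where 4.91% of all genes were, and 6 (6.45%, 2.99 to 13.4) in PC3 only, where 7.85% of all genes were. Among voltage-gated calcium channel genes, 5 of 25 were accessible in NCI-H660 only and 7 in PC3 only, and among voltage-gated sodium channel genes 0 of 14 and 4.

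The 17 promoters accessible in NCI-H660 only came from most families. Voltage-gated members were KCNA3 and KCNA7 of the Shaker type, KCNC2, a channel of fast-spiking neurons, KCND3, which carries transient outward current, and the ether-a-go-go relatives KCNH4 and KCNH7. Among inward rectifiers they were KCNJ1, the renal outer medullary channel, KCNJ4 and KCNJ6, a G protein-gated channel of neurons. Background channels of the 2-pore family gave KCNK3, KCNK5, KCNK6, KCNK13, KCNK16 and KCNK17, the last 2 of which lie in 1 locus with KCNK5. KCNT2, a sodium-activated channel, and KCNIP1, a calcium-binding partner of KCND channels, complete the group. The whole KCNH4 locus had 0 regions in every PC3 list, and whether its DNA is present in PC3 was not tested. H3K4me2 marked 15 of the 17 in NCI-H660 (88.2%, against 84.6% of all promoters accessible in NCI-H660 only), and H3K27ac marked 1 of them, KCNK6, in PC3 (5.88%, against 6.89%), so these shares lie near those of all genes. The 6 accessible in PC3 only were KCNN4, the intermediate-conductance calcium-activated channel of non-excitable cells, the auxiliary subunits KCNE3 and KCNE4, the inward rectifier KCNJ8 and the 2-pore genes KCNK7 and KCNK18. Of these, KCNE4, KCNJ8 and KCNN4 carried H3K27ac in PC3 (50%, 18.8 to 81.2, against 35.9% of all promoters accessible in PC3 only).

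In PC3, H3K27ac was listed at 30 KCN promoters (32.3%, 23.6 to 42.3), whereas 68.6% of all protein-coding genes had it. Of the 58 KCN promoters accessible in PC3, 29 (50%, 37.5 to 62.5) had H3K27ac, against 86.7% of all accessible promoters. Marked promoters included KCNMA1, KCNQ5, KCNJ3 and KCNIP3, and accessible promoters with no listed mark included KCNQ1, KCNH2, KCNH5, KCNN3 and KCNB2. In NCI-H660, H3K4me2 was listed at 67 KCN promoters (72.0%, against 75.1% of all genes) and at 65 of the 69 accessible ones (94.2%, 86.0 to 97.7, against 97.4% of all accessible promoters). Of the calcium channel genes 11 of 25, and of the sodium channel genes 10 of 14, had H3K27ac in PC3. The marks differ between the lines, so these shares are not a comparison of PC3 with NCI-H660. Promoters narrower or wider than 1 kb, the outermost start alone, or a minimum score kept H3K27ac between 26.9% and 35.5% of KCN genes and accessibility in NCI-H660 only between 14.0% and 24.7%. Over all genes the same settings gave 63.2% to 70.3% and 4.29% to 6.35%.

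**Figure D1:**
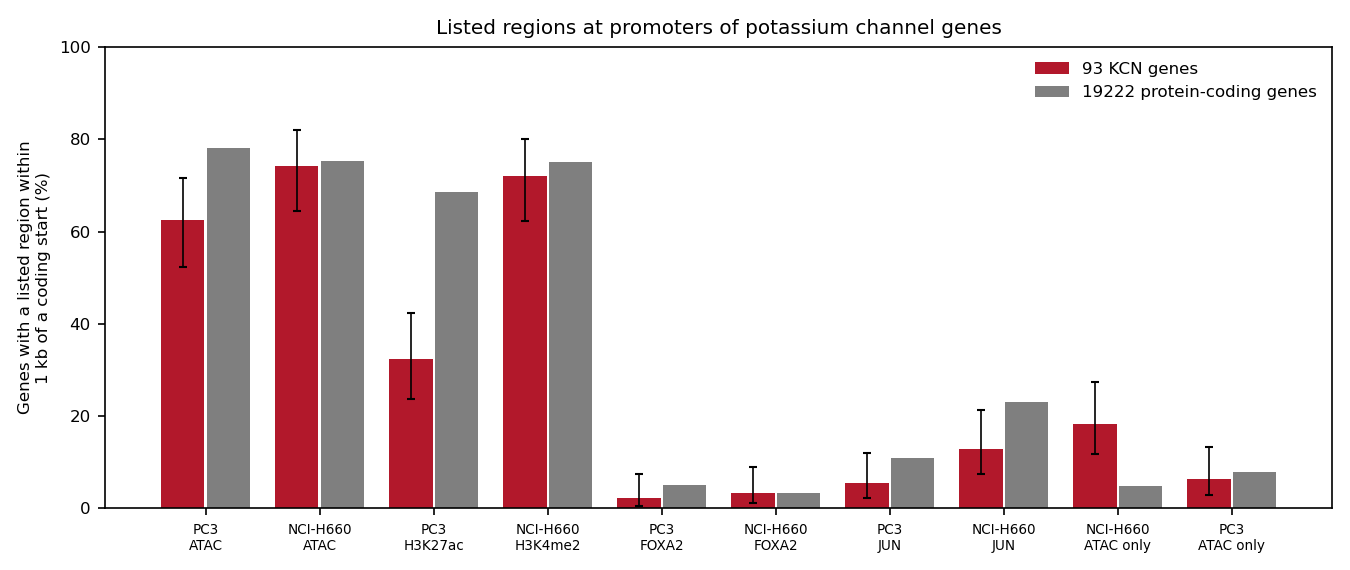
Share of genes (vertical axis, percent) with a listed region within 1 kb of a coding start, for the 93 KCN genes (red, with 95% Wilson intervals) and all 19222 protein-coding genes (grey), by list. The last 2 pairs give promoters accessible in 1 line only. H3K27ac in PC3 shows the widest gap, 32.3% against 68.6%.

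FOXA2 and JUN themselves were seldom listed at KCN promoters. FOXA2 was listed at KCNMA1 and KCNN4 in PC3 (2.15% of KCN genes, against 4.98% of all genes) and at KCNAB1, KCNK9 and KCNMB2 in NCI-H660 (3.23%, against 3.28%). JUN was listed at 5 KCN promoters in PC3 (5.38%, against 10.9%), those of KCNIP2, KCNMA1, KCNN4, KCNQ5 and KCNV1. In NCI-H660 it was listed at 12 (12.9%, against 23.1%), KCNH1, KCNH5, KCNB2 and KCNN3 among them.

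Between the lines, the KCN loci as a whole took similar shares of each list. FOXA2 gave 87 regions in NCI-H660 (0.755% of its list) and 157 in PC3 (0.676%), a log2 ratio of list shares of 0.16 (−0.22 to 0.54), against 0.02 over all protein-coding loci. JUN gave 159 and 184 regions, a log2 ratio of 0.16 (−0.15 to 0.46), against 0.10. Without KCNMA1 the ratio was 0.30 (−0.12 to 0.71) for FOXA2 and 0.35 (0.02 to 0.68) for JUN. Without chromosome 8 it was 0.03 (−0.37 to 0.42) for FOXA2 and 0.05 (−0.28 to 0.37) for JUN. ATAC gave 959 and 2043 regions, a log2 ratio of −0.01 (−0.12 to 0.10), against 0.03. With equal numbers of the highest-scoring ATAC regions from each line, this ratio was 0.23 (0.09 to 0.36), against −0.01 over all protein-coding loci. The voltage-gated calcium channel genes gave 0.88 (0.19 to 1.57) for FOXA2, 0.66 (0.11 to 1.20) for JUN and 0.01 (−0.18 to 0.21) for ATAC. The voltage-gated sodium channel genes gave −0.36 (−1.32 to 0.60), −1.69 (−2.98 to −0.41) and −0.44 (−0.78 to −0.11).

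Single genes were then compared between the lines. Genes with at least 3 regions in 1 of the lists were ranked by the ratio of list shares after adding 0.5 to each count. For FOXA2, 22 KCN genes could be compared. The ratio was at least 2-fold higher in NCI-H660 for 7 of them (31.8%, against 20.3% of all genes compared) and at least 2-fold higher in PC3 for 8 (36.4%, against 36.8%). With JUN, 37 genes could be compared, with 11 higher in NCI-H660 (29.7%, against 31.7%) and 11 higher in PC3 (29.7%, against 24.4%). With ATAC, 15 of 89 were higher in NCI-H660 (16.9%, against 10.1%) and 7 in PC3 (7.87%, against 10.7%). Most of these counts lie near the background. The FOXA2 and ATAC shares towards NCI-H660 are above it, but they rest on 7 and 15 genes and have no interval. KCNAB1, among the 7, had 7 FOXA2 regions in each line and passed only through list size. Among the 15, KCNA2 and KCNA3 share a locus, and so do KCNIP1 and KCNMB1, and KCNK5, KCNK16 and KCNK17. KCNC2, with 9 ATAC regions in each line, and KCNK9, with 19 in each, passed only through list size. With ATAC counts as listed, 8 genes were at least 2-fold higher in NCI-H660.

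The voltage-gated family took a larger share of the FOXA2 and JUN lists in NCI-H660, but not of the ATAC list. Its FOXA2 regions numbered 44 in NCI-H660 and 57 in PC3, a log2 ratio of list shares of 0.64 (0.07 to 1.21), and its JUN regions 71 and 56, a log2 ratio of 0.71 (0.20 to 1.21). Its ATAC regions numbered 408 and 877, a log2 ratio of −0.02 (−0.19 to 0.15). KCNB2, a delayed rectifier of neurons and endocrine cells on chromosome 8, carried much of this. It had 7 FOXA2 regions in NCI-H660 and 1 in PC3, and 18 JUN regions in NCI-H660 and 1 in PC3. The higher JUN density in NCI-H660 was not confined to KCNB2. JUN under siNC there stood at 35.9 regions per Mb at KCNB2 and 26.8 over 2 Mb on either side, against 7.66 over all protein-coding loci. PC3 JUN stood at 9.50 per Mb over the same surroundings, against 9.22 over all protein-coding loci. Chromosome 8 held 12.8% of the NCI-H660 siNC JUN list and 6.72% of the PC3 one. Without KCNB2 the family's ratios were 0.41 (−0.19 to 1.01) for FOXA2 and 0.31 (−0.23 to 0.86) for JUN. KCNQ3, a subunit of the neuronal M-current, and KCND3 each had 3 FOXA2 regions in NCI-H660 and 0 in PC3. KCND3 also had 22 ATAC regions in NCI-H660 and 7 in PC3, a log2 ratio of 2.73 (1.46 to 4.20), and KCNH4 had 10 and 0. The KCNH4 locus had 0 regions in every PC3 list of any assay. PC3 ATAC stood at 115 regions per Mb over 2 Mb on either side of KCNH4. Whether the KCNH4 DNA is present in PC3 was not tested. KCNS2, a modifier subunit on chromosome 8, had 11 ATAC regions in NCI-H660 and 4 in PC3. KCNH8, an ether-a-go-go relative, had 3 JUN regions in NCI-H660 and 0 in PC3, and 5 and 7 FOXA2 regions. KCNH1, an ether-a-go-go channel, had 5 JUN regions in NCI-H660 and 0 in PC3, and KCNS3, a modifier subunit that is silent on its own, had 6 and 1. The further PC3 FOXA2 lists, with 75506 and 60856 regions, still held few at these genes, 3 and 1 at KCNB2, 1 and 1 at KCNQ3 and 1 and 3 at KCND3.

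Some other voltage-gated genes leaned towards PC3, while others did not. KCNH5, a brain-enriched ether-a-go-go channel, had 9 FOXA2 regions in PC3 and 1 in NCI-H660, and 77 ATAC regions in PC3 and 4 in NCI-H660, an ATAC log2 ratio of −3.19 (−5.10 to −1.77). KCNQ5, another M-current subunit, had 11 FOXA2 regions in PC3 and 5 in NCI-H660, and 35 and 28 in the further PC3 lists. The log2 ratio of list shares was −0.13 and its interval (−2.00 to 1.52) includes 0. KCND2, which carries transient outward current in dendrites, had 5 JUN regions in PC3 and 0 in NCI-H660. KCNH2, a channel of cardiac repolarization, had 0 FOXA2 regions in both lines and 1 in each further PC3 list. KCNQ1, which acts in heart and epithelia, had 2 FOXA2 regions in NCI-H660 and 0 in PC3, and 4 and 1 JUN regions. The further PC3 lists held 3 and 4 FOXA2 regions at KCNQ1. KCNH3, another ether-a-go-go relative, had 22 ATAC regions in PC3 and 4 in NCI-H660, and KCNS1, a modifier subunit, had 18 and 3.

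Several inward rectifier and auxiliary subunit genes had FOXA2 regions in PC3 alone, where the list is longer. The FOXA2 log2 ratio of list shares was −0.37 (−1.85 to 1.12) for inward rectifiers and −0.24 (−1.18 to 0.69) for auxiliary subunits. Both intervals include 0, as do those of KCNJ3, KCNIP4 and KCNE4 taken singly. KCNJ3, a G protein-gated inward rectifier, had 5 FOXA2 regions in PC3 and 0 in NCI-H660, and 8 and 6 in the further PC3 lists. KCNIP4, a modulator of KCND channels and the longest member at 1220 kb, had 7 and 0, and 16 and 13 in the further lists. KCNE4, an inhibitory auxiliary subunit, had 4 and 0. In the other direction, KCNJ15, an inward rectifier whose locus joins that of KCNJ6, had 3 FOXA2 regions in NCI-H660 and 1 in PC3, and KCNMB2, an auxiliary subunit of the KCNMA1 channel, had 6 and 3. KCNMB1, of the same group, had 12 ATAC regions in NCI-H660 and 3 in PC3, in a locus that overlaps that of KCNIP1. KCNAB1, an auxiliary subunit of Shaker-type channels, had 7 in each line. JUN at the neighbours KCNJ2 and KCNJ16, whose loci overlap, stood at 4 and 5 regions in PC3 and 0 and 0 in NCI-H660.

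The 2-pore family had 148 ATAC regions in NCI-H660 and 238 in PC3, a log2 ratio of list shares of 0.40 (0.10 to 0.69). Its FOXA2 ratio was 0.84 (−0.53 to 2.22) and its JUN ratio 0.53 (−0.25 to 1.31), and both intervals include 0. KCNK5, an acid-sensitive background channel, had 14 ATAC regions in NCI-H660 and 6 in PC3, and its neighbour KCNK17 had 17 and 7. Each had 3 JUN regions in NCI-H660 and 0 in PC3. KCNK2, a mechanosensitive background channel, had 3 FOXA2 regions in PC3 and 0 in NCI-H660. Among small-conductance calcium-activated channels, KCNN2 had 35 ATAC regions in PC3 and 2 in NCI-H660, whereas KCNN3 had 3 JUN regions in NCI-H660 and 0 in PC3. KCNU1, a sperm channel on chromosome 8, had 4 FOXA2, 4 JUN and 11 ATAC regions in PC3 and 0 of each in NCI-H660.

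**Figure D2:**
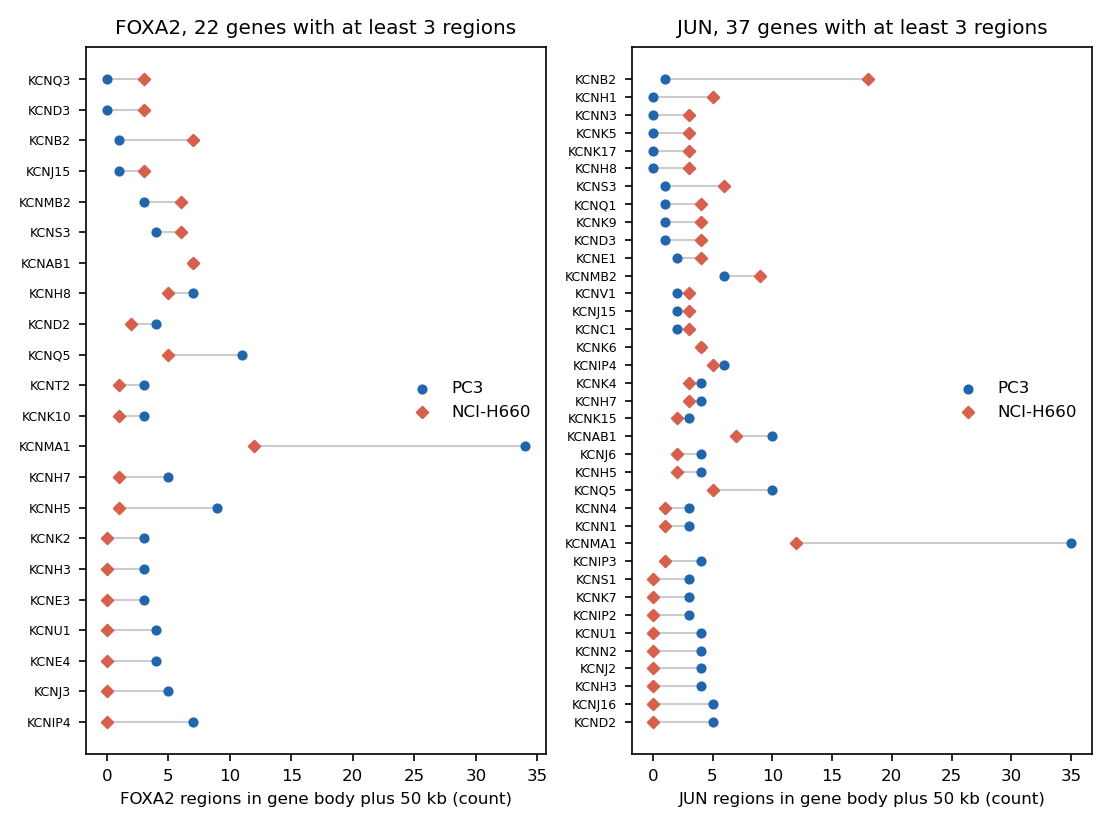
Number of FOXA2 regions (left, 22 genes) and JUN regions (right, 37 genes) in the gene body plus 50 kb (horizontal axis, counts not divided by list size) in PC3 (blue circles) and NCI-H660 (red diamonds), for KCN genes with at least 3 regions in 1 line, ordered by the ratio of list shares. KCNMA1 stands apart in PC3 with 34 FOXA2 and 35 JUN regions, and KCNB2 in NCI-H660 with 18 JUN regions.

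KCNMA1, which encodes the pore of the large-conductance calcium- and voltage-activated channel, held the most FOXA2 regions of any member in both lines. It spans chr10:78629359-79398127 on the minus strand. Its locus held 34 FOXA2 regions in the PC3 vehicle list and 70 and 63 in the further PC3 lists, where 8.06 were expected for its length in the vehicle list. In NCI-H660 it held 12 where 4.25 were expected, and the log2 ratio of list shares between the lines was −0.49 (−1.58 to 0.49), an interval that includes 0. JUN gave 35 regions in PC3 and 12 in NCI-H660, a log2 ratio of list shares of −1.18 (−2.26 to −0.20). FOSL1 gave 15 regions in PC3, so KCNMA1 alone held 15 of the 29 FOSL1 regions at KCN loci. ATAC gave 197 and 57, and PC3 H3K27ac 97.

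The KCNMA1 regions ran along the whole gene rather than at its start, and every 100 kb step of the locus held from 2 to 6 PC3 FOXA2 regions. Accessibility was as dense around the locus as in it: PC3 ATAC stood at 227 regions per Mb at the locus and 230 per Mb over 2 Mb on either side, against 86.5 over all protein-coding loci. FOXA2 and JUN were denser at the locus than around it, with 39.1 against 15.8 FOXA2 regions per Mb and 40.3 against 18.8 JUN regions per Mb. In NCI-H660 the FOXA2 density was 13.8 at the locus and 15.8 around it. DNA copy number was not measured in these lists, and its part in the number of regions was not tested. Without KCNMA1, the remaining 7 genes of the calcium- or sodium-activated family had 13 FOXA2 regions in PC3 and 5 in NCI-H660.

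**Figure D3:**
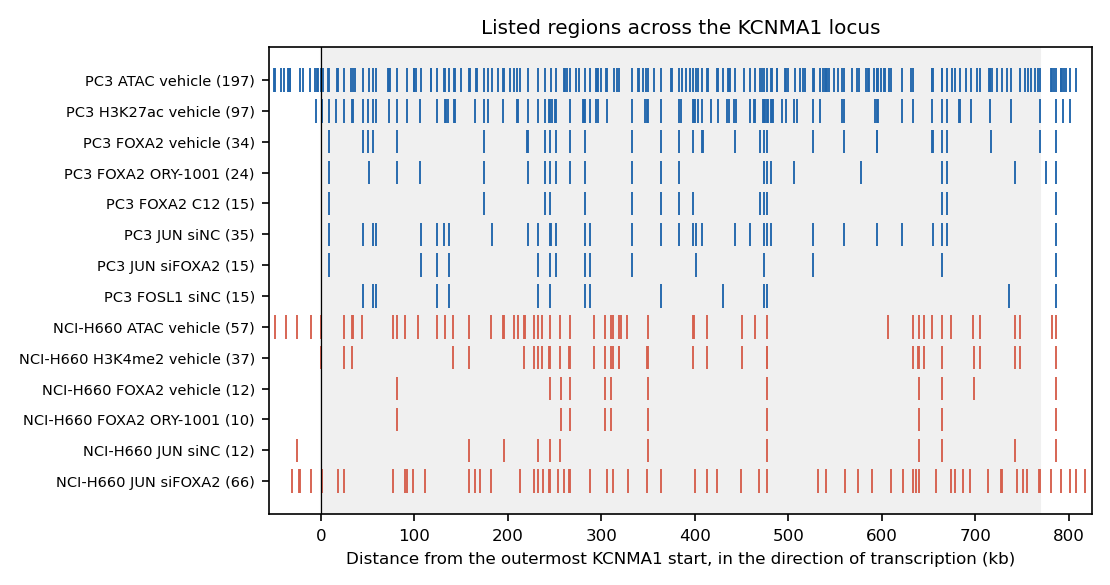
Listed regions (vertical ticks at region centres) across the KCNMA1 locus by list, with the number of regions in brackets, for PC3 (blue) and NCI-H660 (red). The horizontal axis is the distance in kb from the outermost annotated start in the direction of transcription, and grey marks the gene body. PC3 FOXA2 and JUN ticks run along the whole gene, and JUN in NCI-H660 goes from 12 to 66 regions under siFOXA2.

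FOXA2 regions at KCN loci were fewer after either LSD1 inhibitor in PC3. The vehicle list held 157, the ORY-1001 list 98 and the C12 list 55. After ORY-1001, 56 of the 157 regions (35.7%, 28.6 to 43.4) were kept, meaning overlapped by at least 1 bp in the treated list, against 37.7% over all protein-coding loci. After C12, 48 (30.6%, 23.9 to 38.2) were kept, against 29.6%. Both inhibitors kept 36 regions (22.9%) and lost 89 (56.7%), against 24.1% and 56.8% over all protein-coding loci. The doses differ, 10 µM against 0.5 µM, so the lists are given side by side without a comparison of the compounds.

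Of the 18 KCN genes with at least 3 vehicle regions, the number was at least 2-fold lower after ORY-1001 in 9 (50%, against 60.3% of all genes) and after C12 in 17 (94.4%, against 81.0%). KCNJ3 went from 5 regions to 0 under ORY-1001 and 1 under C12. KCNIP4 went from 7 to 1 and 1, KCNQ5 from 11 to 2 and 2, and KCNE4 from 4 to 1 and 0. KCNMA1 went from 34 to 24 and 15, with 18 and 15 of its vehicle regions kept. Without KCNMA1, the share kept was 30.9% for ORY-1001 and 26.8% for C12. Lost regions had lower scores, with a median of 122 for the 89 lost under both inhibitors and 509 for the 36 kept under both. The whole list gave medians of 106 and 395. Forkhead matches stood in 77.5% (67.8 to 85.0) of the lost and 69.4% (53.1 to 82.0) of the kept regions, against 78.3% and 74.6% in the whole list.

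KCNH5 and KCNK2 departed from this under ORY-1001. KCNH5 had 9 regions in vehicle and 11 after ORY-1001, but only 2 of the 9 were kept and 9 of the 11 were new. KCNK2 went from 3 to 10, of which 8 were new, and was the only member of 18 with a number at least 2-fold higher (5.56%, against 3.72% of all genes). The new regions were weak. The 42 new ORY-1001 regions at KCN loci had a median score of 33, and PC3 ATAC overlapped 21.4% of them and a forkhead match stood in 21.4%, whereas ATAC overlapped 91.1% of the vehicle regions. New regions of the whole list had a median score of 35, with ATAC at 39.5% and a forkhead match in 32.8%. C12 gave 4 regions at KCNH5 and 1 at KCNK2.

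NCI-H660 held 87 FOXA2 regions at KCN loci in vehicle and 88 after ORY-1001, and 62 of the 87 (71.3%, 61.0 to 79.7) were kept, against 67.1% over all protein-coding loci. None of 10 KCN genes had a number at least 2-fold lower, against 16.0% of all genes. KCNH1, from 2 to 4, and KCNH5, from 1 to 3, were the 2 of 12 at least 2-fold higher (16.7%, against 8.33%). KCNAB1 kept 7 of 7, KCNS3 6 of 6 and KCNQ5 5 of 5, and KCNB2 kept 3 of 7 and gained 5.

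**Figure D4:**
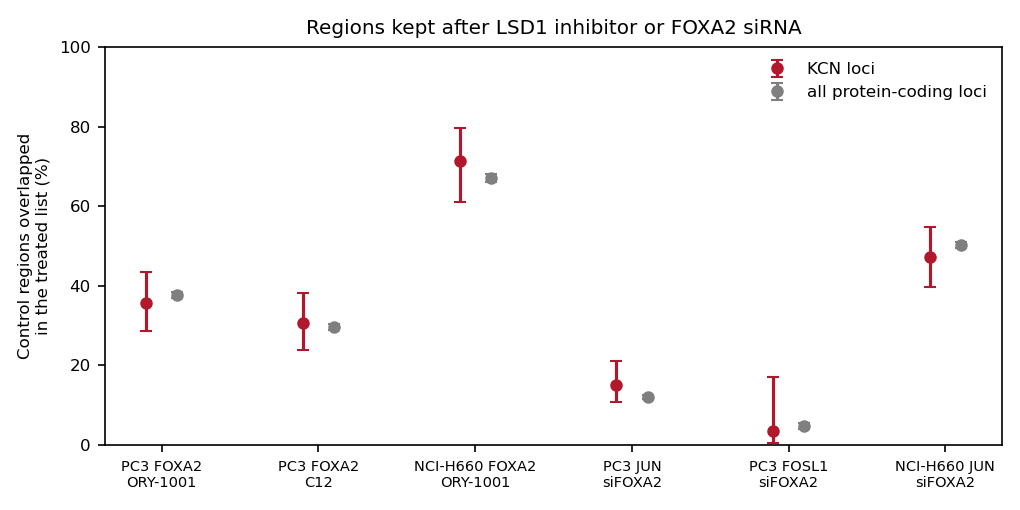
Share of control regions overlapped in the treated list (vertical axis, percent, with 95% Wilson intervals) at KCN loci (red) and at all protein-coding loci (grey) for each contrast. In every contrast the interval at KCN loci includes the value for all protein-coding loci.

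JUN at KCN loci was reduced after siFOXA2 in PC3, as it was at other genes. The siNC list held 184 regions and the siFOXA2 list 38, and 28 of the 184 (15.2%, 10.7 to 21.1) were kept, against 1969 of 16463 (11.5 to 12.5%) over all protein-coding loci. All 23 KCN genes with at least 3 siNC regions had at least 2-fold fewer (100%, against 96.4% of all genes). KCNMA1 kept 15 of 35, which was 15 of the 28 regions kept at KCN loci. Without KCNMA1, 13 of 149 regions (8.72%, 5.17 to 14.4) were kept. KCNQ5 lost 10 of 10, KCNAB1 9 of 10, and KCNIP4 and KCNMB2 6 of 6 each. An AP-1 match stood in 71.4% (52.9 to 84.7) of the 28 kept and 44.9% (37.3 to 52.7) of the 156 lost regions. In the whole list the shares were 51.0% and 49.3%, and 15 of the 28 kept regions are in KCNMA1. The median score was 557 for the kept and 145 for the lost, against 427 and 134 in the whole list. The strongest kept region is the first KCNMA1 sequence above, which scored 6009 under siNC and 1430 under siFOXA2. FOSL1 kept 1 of 29 regions (3.45%, 0.611 to 17.2), a place 3′ of KCNMA1 that 17 of the 22 lists shared.

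In NCI-H660, siFOXA2 went with a longer JUN list. KCN loci held 159 JUN regions under siNC and 554 under siFOXA2. Of the 159, 75 (47.2%, 39.6 to 54.9) were kept, against 50.2% over all protein-coding loci, and 480 of the 554 were new (86.6%, against 84.0%). Among 54 KCN genes with at least 3 regions in either list, 38 had at least 2-fold more (70.4%, against 71.3% of all genes). Among 22 with at least 3 under siNC, 3 had at least 2-fold fewer (13.6%, against 10.9%). KCNJ15 went from 3 to 0, KCNK6 from 4 to 1 and KCNS3 from 6 to 2.

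A few long genes gained the most JUN regions, while other long genes gained few. KCNIP4, the longest member, gained 4, and KCND2, at 477 kb, gained 0. KCNMA1 gained 62, KCNB2 58, KCNQ3 48, KCNH1 29 and KCNMB2 28. KCNQ3 had 0 JUN regions under siNC and 48 under siFOXA2. KCNB2 had 18 and 69, and KCNMA1 12 and 66. Regions were about as dense around these genes as in them. JUN under siFOXA2 stood at 138 regions per Mb at KCNB2 and 130 over 2 Mb on either side, at 104 and 95.2 for KCNQ3, and at 76.0 and 77.5 for KCNMA1. KCNB2 and KCNQ3 are on chromosome 8, which held 18.4% of the whole siFOXA2 list and 12.8% of the siNC list. The 6 KCN genes there had 152 of the 554 regions, a density of 93.0 per Mb against 19.9 at the other loci.

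The new JUN regions at KCN loci had a median score of 35, a forkhead match in 14.8% (11.9 to 18.2) and an AP-1 match in 3.54% (2.22 to 5.60). New regions of the whole list gave nearly the same values, a median score of 35 and shares of 15.6% and 3.56%. The lost regions held a forkhead match in 38.1% (28.4 to 48.8) and an AP-1 match in 10.7% (5.74 to 19.1), against 34.4% and 12.9% in the whole list. NCI-H660 ATAC from vehicle-treated cells overlapped 20% (16.7 to 23.8) of the new regions at KCN loci and 20.8% in the whole list, against 85.5% (79.2 to 90.2) of the siNC regions at KCN loci, and FOXA2 overlapped 2 of the 480. The strongest kept region lies in a KCNMA1 intron at chr10:79165450-79165800 and scored 1550 under siNC and 1225 under siFOXA2. Outside places shared by most lists, the strongest lost region lies at chr21:35773251-35773824 in the shared flank of KCNE1 and KCNE2. It overlaps the genes C21orf140 and SMIM11 and scored 673. Depth of the lists is unknown, and its part in the longer siFOXA2 list was not tested.

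**Figure D5:**
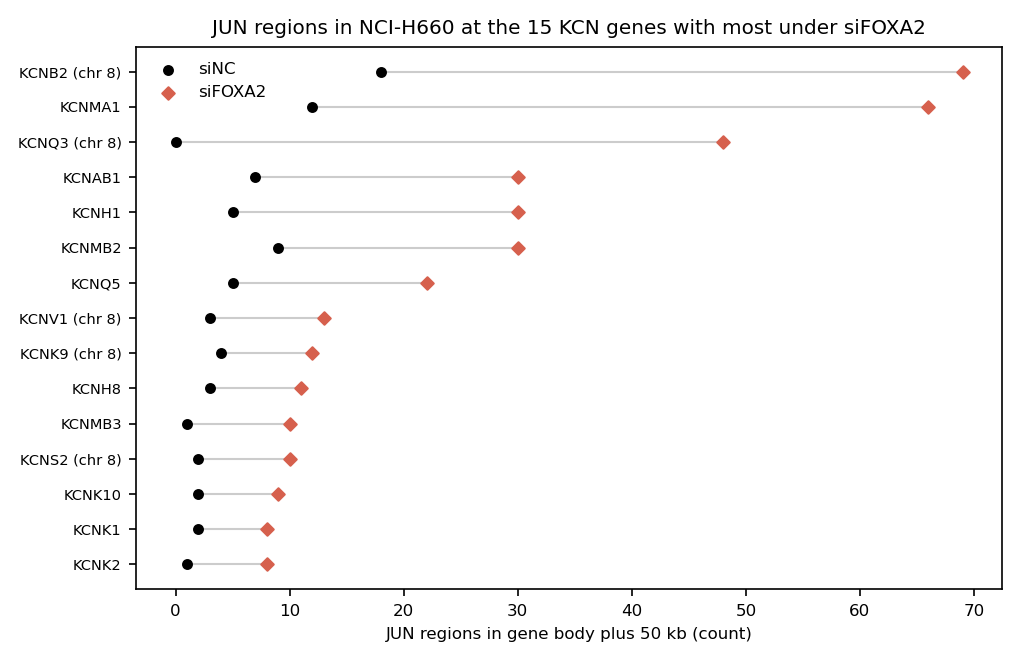
JUN regions in NCI-H660 (horizontal axis, count in the gene body plus 50 kb) under siNC (black circles) and siFOXA2 (red diamonds) at the 15 KCN genes with most regions under siFOXA2. KCNB2, KCNMA1 and KCNQ3 reach 69, 66 and 48 regions.

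JUN lists from LNCaP cells without added FOXA2 were short. The siNC list held 16 and the FOXA1 siRNA list 9, of lists of 2269 and 1807 regions. JUN in FOXA2OE cells was listed 135 times and in FOXA2K265R cells 289 times, and summed over genes the counts were 139 against 222 expected for gene length, a ratio of 0.627 (0.531 to 0.740), and 299 against 413, a ratio of 0.723 (0.646 to 0.810). In FOXA2OE cells the count was led by KCNN3 with 8 regions and in FOXA2K265R cells by KCNMB2 with 17. KCNMA1 had 2, 1, 7 and 14 JUN regions across siNC, FOXA1 siRNA, FOXA2OE and FOXA2K265R. FOXA2 in FOXA2OE cells gave 8 regions at KCN loci, 2 of them at KCNS3. The siNC, FOXA2OE and FOXA2K265R lists come from different processing folders, so folder and condition cannot be told apart.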

How the data were processed

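ChIP-seq and ATAC-seq region lists of prostate cancer lines were used. The authors checked reads with FastQC 0.11.9, aligned them to hg19 with BWA 0.7.17-r1188, handled them with SAMtools 1.9 and called regions with MACS2 2.1.4. Control libraries, caller settings and pooling are not given in the sources used here. The deposited score column of 20 lists is the caller's whole-number score, whose minimum is 13 in most lists. The other 2 lists, LNCaP siNC JUN and FOXA2OE FOXA2, were deposited with coordinates and no score. Read depth is unknown, so list length stands in for it only in part. The FOXA2K265R list was grouped by its title, since its other labels name FOXA2OE cells. The PC3 H3K27ac list and the ATAC lists are vehicle per the labels, while the names they were deposited under give siNC or both siNTC and vehicle. The FOXA2 antibody is named differently in the labels and in the study's methods.

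Genes came from GENCODE 44 mapped to GRCh37, with 50 kb added on either side. Overlap meant at least 1 bp. Expected counts used the density of all other protein-coding genes in 5 length classes (limits 10, 30, 100 and 300 kb). Ratios for single genes added 0.5 to each count and needed at least 3 regions in 1 list. Places overlapped in at least 17 of the 22 lists were called shared. Shares have Wilson intervals and ratios have intervals from counts, all at 95% and for counting error only. Python 3.11.15, numpy 2.4.6, scipy 1.17.1 and matplotlib 3.10.9 were used, and the counting was tested on simulated data. With 1 list per group there was no test. Where siRNA or inhibitor contrasts are given, both lists of a contrast shared a processing folder.

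The members and gene lists were chosen with earlier results of these data known. Named genes were the 5 with the largest ratio between lines in each direction for FOXA2, JUN and ATAC, the 5 with most FOXA2 regions in each line, the 5 with most regions lost under both inhibitors, lost under siFOXA2 in PC3 or new under siFOXA2 in NCI-H660, and KCNMA1, KCNQ1, KCNH2, KCNH5, KCNJ3, KCNN3 and KCNK5 for their known roles, while 1 more gene of that rule is not reported here. Other genes were named after their values were seen. Named regions were the highest-scoring of each class outside shared places. Alternatives were the gene body alone, a score minimum of 50, equal list lengths, a 50% overlap, counts as listed, a fold of 3, and leaving out shared places. Leaving out KCNMA1 or chromosome 8 and other promoter definitions were added after seeing the data.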

Additional observations from a re-analysis of the deposited data

Results flagged for a closer look

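Between control and treated lists, the number of regions at KCN loci differed in unlike ways in PC3 and NCI-H660. FOXA2 regions after ORY-1001 over vehicle gave a log2 ratio of −0.68 (−1.04 to −0.32) in PC3 and 0.02 (−0.41 to 0.44) in NCI-H660, and the latter interval includes 0. JUN regions after siFOXA2 over siNC gave −2.28 (−2.78 to −1.77) in PC3 and 1.80 (1.55 to 2.06) in NCI-H660. Over all protein-coding loci the 4 ratios were −0.86, −0.09, −2.78 and 1.64. The whole NCI-H660 JUN list had 17990 regions under siNC and 58805 under siFOXA2, and depth is unknown. New JUN regions at KCN loci in NCI-H660 were weak, with a median score of 35. Each group held 1 list, so neither an effect of treatment nor the difference between the lines was tested.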

How the results depend on the processing

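Of 110 alternative values for 23 results, 92 stayed within the counting error or within 1.5 times the count and 18 moved. The ATAC ratio between lines, −0.01 as reported with an interval that includes 0, had the other sign in 4 alternatives. It was 0.14 with a score minimum of 50 and 0.23 with equal list lengths, where the interval no longer included 0, and 0.06 in the gene body alone and 0.05 without KCNMA1, where it did. FOSL1 kept 0 regions in the gene body alone, with the score minimum, without shared places and without KCNMA1. JUN kept in NCI-H660 was 30.2% with an overlap of at least 50%. Without KCNMA1, JUN kept in PC3 was 8.72%, and the PC3 ratio to the length expectation was 0.669 for FOXA2 and 0.773 for JUN. In the gene body alone, the genes higher in PC3 numbered 5 for FOXA2, 5 for JUN and 3 for ATAC. With counts as listed, genes higher in NCI-H660 numbered 4 for FOXA2 and 8 for ATAC, and genes higher in PC3 numbered 13 for FOXA2 and 53 for ATAC, so that more genes were higher in PC3 for ATAC rather than in NCI-H660. With a fold of 3, ATAC was higher in PC3 at 3 genes. Counts as listed keep the unequal list lengths, and the gene body alone leaves fewer regions. For the other moved values the cause was not tested. No paired analysis was possible because each group compared held 1 list. List length, depth and caller settings limit every count, and a place missing from a list may have fallen under the caller's threshold.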
